A study of Mus musculus with 6 samples.

Results

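Cytosolic ribosomal proteins build the large and the small subunit of the ribosome that translates nuclear mRNAs. Their genes were taken here by symbol, as Rpl or Rps followed by a number and at most 1 of the letters a, l, x or y, together with Rpsa, Rplp0, Rplp1 and Rplp2, leaving out the Rps6k kinases. This gave 48 of the 16139 genes that have at least 1 probe set annotated to a single gene. The 48 comprise 26 genes of the large subunit, 2 of its stalk and 20 of the small subunit, and they hold 233 of the 204531 probe sets on the array. A further 4 genes, Rpl38, Rpl7a, Rplp2 and Rps3a, appear in the annotation only on probe sets shared with other symbols and were not analysed here. Rps6, Rpl11 and Rps27a were also not analysed here.

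Liver RNA came from 3 male mice homozygous for a mutation of Dhx32 (strain label Dhx32-/- mutant) and from 3 male control mice (strain label wild type). All were 6 to 8 weeks old, and each mouse has 1 exon-level Affymetrix array, which carries probe sets for many exons of a gene. Dhx32 encodes a member of the DEAH-box RNA helicase family, and the study asked which transcripts and exons differ in liver when it is mutated. The kind of mutation and the background strain of the mice are not given in the sources used here. Values are log2 signals as deposited, a difference is mutant minus control on that scale, and a gene's value is the mean of its probe sets whose signal averaged 3 or more in a group.

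Ribosomal protein mRNAs are abundant in every cell that makes protein, and liver exports large amounts of protein to plasma. Many of these mRNAs start with a 5′ terminal oligopyrimidine (TOP) tract, a C followed by a run of C and T, through which the growth kinase mTOR and the protein LARP1 control their translation. Ribosomal proteins are made in matched amounts and assembled with ribosomal RNA in the nucleolus. The genes have many processed pseudogene copies in mammals, so a probe set named for one gene may also bind transcripts of its copies.

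Sequences at the annotated start sites were searched for this tract. Of the 48 genes, 39 had an entry in the RefSeq promoter table of build GRCm38.p6, with 48 windows in all. A C followed by at least 4 bases that are each C or T, on the sense strand and starting within 5 bases of the annotated start, was found in 18 of the 48 windows (37.5%), and in 6027 of 32851 windows of all genes (18.3%). The 6 windows below run from 10 bases before the start through 20 bases from it, 5′ to 3′, with the tract in capitals. They belong to genes with values below and are shown for the contrast between those with and without a tract at this place. The search depends on the annotated start, which may not be the start used in liver. A window without a match therefore does not show that the mRNA lacks a TOP tract.
Rps27, chr3:90213629-90213658, minus strand: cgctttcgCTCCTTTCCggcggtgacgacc
Rps10, chr17:27635225-27635254, minus strand: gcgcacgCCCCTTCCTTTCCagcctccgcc
Rpl27a, chr7:109519185-109519214, plus strand: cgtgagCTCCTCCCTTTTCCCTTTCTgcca
Rpl31, chr1:39367841-39367870, plus strand: tcctcgCCTCCCCgtgacccggaagttgta
Rplp0, chr5:115559457-115559486, plus strand: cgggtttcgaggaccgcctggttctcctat
Rpsa, chr9:120127756-120127785, plus strand: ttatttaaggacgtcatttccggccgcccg

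Other motifs were searched on both strands of the full RefSeq windows of the same genes, which reach from 250 bases before to 50 bases after the start. CCGGAAG, the core bound by ETS factors such as GABP, was in 39.6% of the ribosomal protein windows, against 8.86% of all windows. GGGCGG, the core of the SP1 site, was in 54.2% against 35.7%. AAGATGGC, part of the YY1 site, was in 8.33% against 2.75%, and TATAAA, the TATA box core, was in 8.33% against 13.6%. These are letter matches and were not tied to any array value.

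Before the comparison, the arrays were checked. Their medians lay between 6.73 and 6.95. Mutant replicate 1 stood apart, with correlations of 0.935 to 0.94 with the other arrays over all probe sets, whereas the other 5 arrays correlated at 0.96 to 0.973 with each other. The mean of the 16 Dhx32 probe sets was 6.66 ± 0.35 in mutant livers and 8.58 ± 0.29 in control livers (SD, n = 3 each), without overlap. The hepatocyte marker Alb read 13.6 to 14.1 on the 6 arrays, and the 8 hepatocyte genes of the marker list averaged 13.4, 13.4 and 13.5 in mutants against 13.3, 13.4 and 13.4 in controls. The 6 measured acute phase genes averaged 13.05, 11.3 and 10.5 in mutant replicates 1 to 3, against 9.66, 9.22 and 9.52 in controls, so that mutant replicate 1 was the highest array. Nothing in the labels says how the mice were housed or grouped for collection. An effect of housing or collection shared by a group could therefore not be told apart from genotype. The p-values compare the group difference with the spread between mice within groups.

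Most ribosomal protein genes read slightly higher in mutant livers, and none of them passed the threshold once all genes were accounted for. Of the 48 genes, 40 had at least 2 usable probe sets and were tested as gene means within a limma fit over 15061 genes. Their mean was higher in mutants for 29 (72.5%) and lower for 11, while 47.5% of all genes tested were higher. The median difference was 0.17, against -0.014 over all genes tested. After Benjamini-Hochberg adjustment 0 of the 40 passed the threshold of 0.05 (adjusted p = 0.942 to 0.979), where 0.00664% of all genes did. At an unadjusted p under 0.05, 2 genes were higher (5% of the 40, against 2.01% of all genes) and 0 were lower (against 2.19% of all genes).

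In 4 of the 40 genes every mutant lay above every control (10%, against 5.15% of all genes), and in 0 did every mutant lie below (against 4.32%). The median was 0.10 without mutant replicate 1 and 0.069 without control replicate 2, and the number with a higher mean was 28 to 30 of the 40 when any 1 array was left out. The share of all genes with a higher mean was then 43.3% to 54.5%. It was 53.7% after quantile normalization and 55.8% with array medians set equal, with 29 of the 40 higher in both. The count of genes at an unadjusted p under 0.05 and higher depended on which array was left out. It was 0 without control replicate 2 or control replicate 3, 4 without mutant replicate 2, 6 without mutant replicate 3 and 7 without control replicate 1. Over all genes the count in both directions moved too, from 633 on the 6 arrays. It was 324 without control replicate 2 or control replicate 3, 827 without mutant replicate 2, 1356 without mutant replicate 3 and 968 without control replicate 1. In bulk tissue, a different number of cells of a type and a different amount of RNA per cell cannot be told apart.

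**Figure D1:**
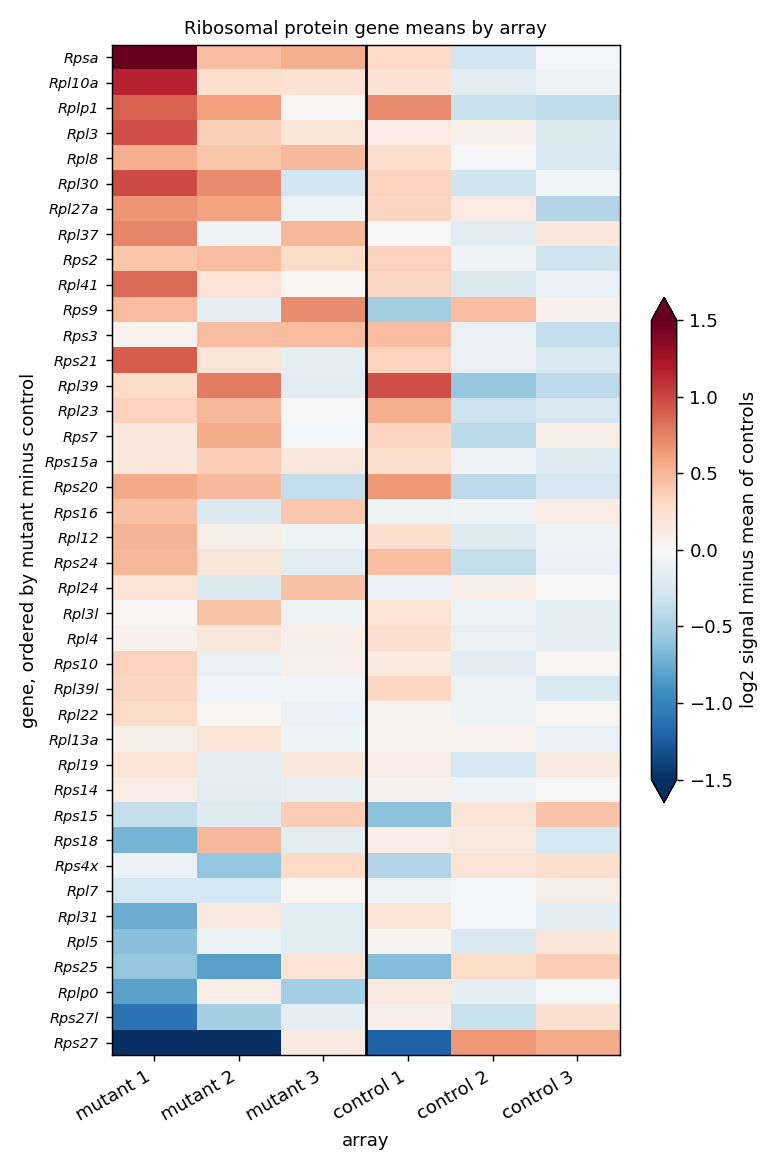
Gene means of the 40 tested ribosomal protein genes on each array, as log2 signal minus the mean of the 3 control arrays (colour, capped at 1.5 either way). Columns are the 3 mutant and then the 3 control arrays, rows are ordered by mutant minus control, and control replicate 1 is redder than the other controls in many rows.

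The livers did not divide cleanly into the 2 genotypes. Averaged over the 40 genes, the log2 signal was 9.27, 9.19 and 9.16 in mutant replicates 1 to 3, and 9.22, 9.001 and 9.04 in control replicates 1 to 3. The arrays also differed in their mean over all genes tested. With that mean subtracted on each array, the values were 2.435, 2.306 and 2.159 in mutants and 2.314, 2.058 and 2.115 in controls. Mutant replicate 3 was then close to control replicate 3. Before and after this step, control replicate 1 was above mutant replicates 2 and 3 and below mutant replicate 1. Control replicate 1 thus lay inside the range of the mutants. It was the highest of the 3 controls in 26 of the 40 genes (65%, against 33.7% of all genes tested). Mutant replicate 1 was the highest of the 3 mutants in 19 of the 40 (47.5%, against 28.8% of all genes tested).

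Across the 40 genes, deviations from the 6-array mean in mutant replicate 2 went with those in control replicate 1 at r = 0.749, against r = 0.204 over all 15061 genes. Those of mutant replicate 3 went with control replicates 2 and 3 at r = 0.637 and 0.56, against 0.00527 and -0.0237 over all genes. Mutant replicate 1 went with mutant replicate 2 at r = 0.291 and with control replicate 1 at r = 0.139, against -0.193 and -0.2 over all genes. Control replicates 2 and 3 went together at r = 0.762, against 0.366 over all genes. Deviations from the mean of the 6 arrays sum to 0 in each gene, so pairs of arrays tend to correlate below 0. Genes on 1 array share its RNA and normalization, so these correlations only describe the 6 arrays. Nr1d1, a clock gene that cycles strongly over the day, read 7.30, 8.14 and 10.5 in mutant replicates 1 to 3, against 9.13, 10.9 and 10.7 in control replicates 1 to 3. Its 3 lowest arrays were mutant replicates 1 and 2 and control replicate 1, and its part in the ribosomal protein values was not tested.

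Markers of other cells were set beside these values. The 9 neutrophil genes averaged 5.82, 5.30 and 5.12 in mutants, against 5.13, 4.98 and 5.23 in controls, and 6 of the 9 had a higher mean in mutants. The 6 Kupffer cell genes averaged 8.51, 7.62 and 7.80 in mutants, against 7.50, 8.08 and 8.12 in controls. Of the 5 genes of cycling cells 1 was higher and 4 were lower in mutants, with a median of -0.098. The remaining lists had medians of -0.18 for 6 lymphocyte genes, 0.028 for 2 erythroid genes, -0.32 for 5 endothelial genes, -0.81 for 5 stellate cell genes and 0.065 for 5 bile duct genes. In that order, 1, 1, 1, 2 and 4 genes were higher in mutants, and 5, 1, 4, 3 and 1 were lower. The stellate cell genes ran from -0.93 to 0.13 and the bile duct genes from -0.0094 to 1.07. Mutant replicate 1 was the highest array for neutrophil, Kupffer cell, bile duct and cycling genes. The part of these cells in the ribosomal protein values was not tested.

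**Figure D2:**
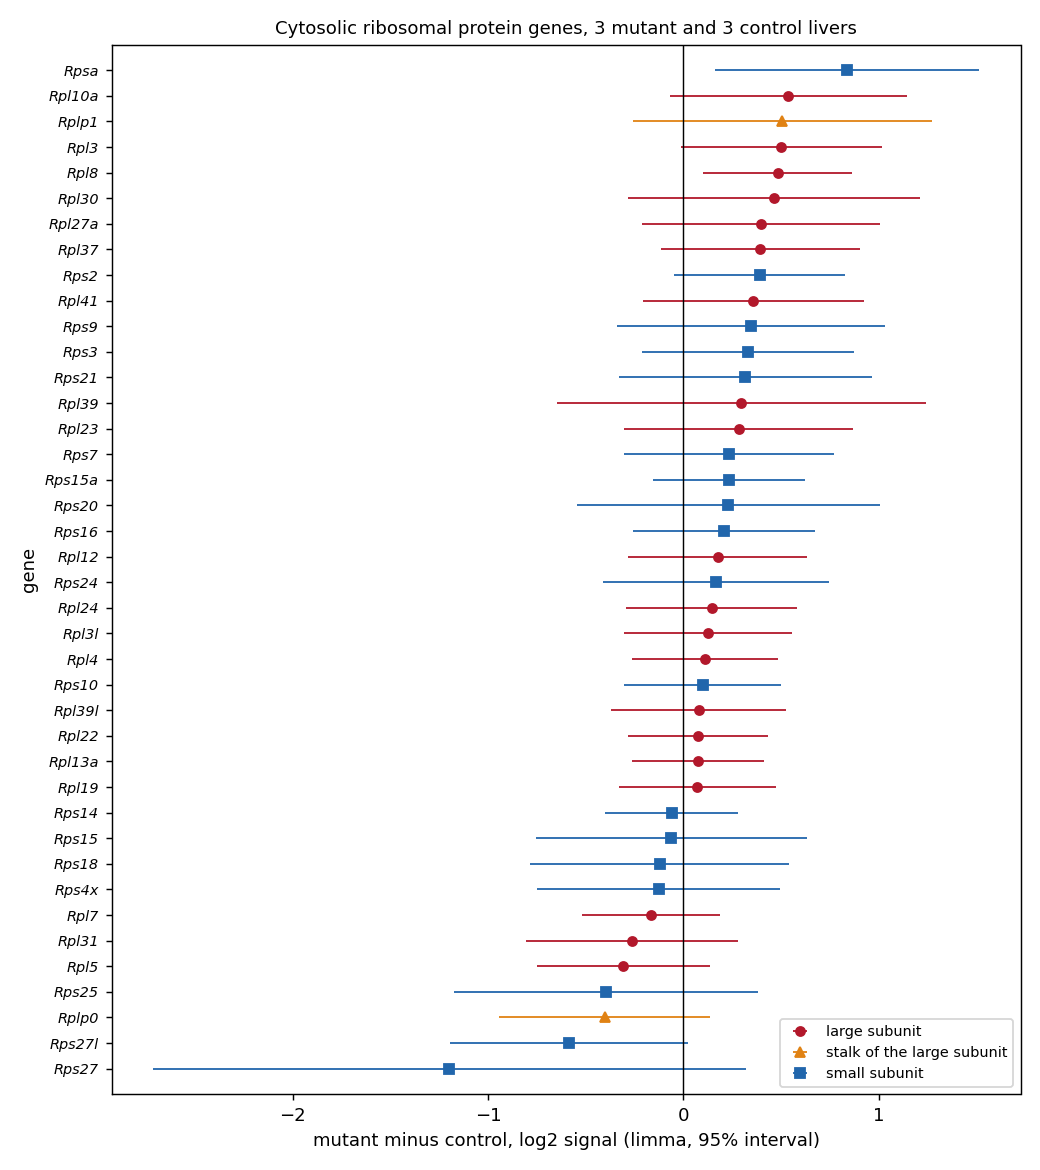
Mutant minus control difference in log2 signal for each of the 40 tested genes, with its 95% interval from limma (3 arrays per group); circles are large subunit, triangles stalk and squares small subunit genes. The intervals of Rpsa and Rpl8 alone leave out 0, and the widest is that of Rps27, which reaches down to -2.72.

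Both subunits had more genes higher than lower. Of 22 tested genes of the large subunit with its stalk, 18 were higher in mutants and 4 lower, with a median of 0.16. Of 18 tested small subunit genes 11 were higher and 7 lower, with a median of 0.19. The difference between the subunits was not tested. Array means of the large subunit genes were 9.45, 9.36 and 9.17 in mutants against 9.39, 9.02 and 9.04 in controls, so control replicate 1 was above mutant replicates 2 and 3. Those of the small subunit were 9.04, 8.97 and 9.15 in mutants against 9.01, 8.98 and 9.03 in controls, which also overlap.

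Rpl8 had the smallest p of the family. It encodes a large subunit protein next to the centre where peptide bonds form. Its mean over 7 probe sets was 10.6, 10.5 and 10.5 in mutant livers, against 10.3, 10.03 and 9.82 in control livers. All mutants were above all controls, and control replicate 1 was the nearest to them. The difference was 0.48 (SE 0.17, 95% interval 0.10 to 0.87), which is 1.40-fold, with an unadjusted p = 0.0190 (adjusted p = 0.942 in limma). Its probe set 5263558 also had the smallest p among the family's probe sets, at 11.9, 11.4 and 11.8 in mutants against 11.1, 11.0 and 10.5 in controls (difference 0.87, SE 0.28; adjusted p = 0.994 over all probe sets in limma).

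Rpsa had the largest positive difference of the 40, 0.84 (SE 0.29, 95% interval 0.16 to 1.51) or 1.79-fold. The protein sits on the small subunit and is also known as the laminin receptor precursor. It read 10.4, 9.32 and 9.40 in mutants, against 9.16, 8.57 and 8.84 in controls, and limma gave an adjusted p = 0.942. Mutant replicate 1 was far above the rest, the other mutants were only just above control replicate 1, and the difference was 0.51 without mutant replicate 1. In 3 of its 6 probe sets every mutant lay above every control, as in 4.01% of all probe sets.

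In Rpl3 and Rpl10a mutant replicate 1 was again the highest array. Rpl3, a core protein of the large subunit, read 11.6, 11.0 and 10.8 in mutants against 10.7, 10.7 and 10.4 in controls, a difference of 0.50 (SE 0.22). Rpl10a, the protein of the mobile L1 stalk, read 8.42, 7.51 and 7.48 in mutants against 7.48, 7.11 and 7.21 in controls, a difference of 0.54 (SE 0.26) over 2 probe sets. In both genes the groups did not overlap, but by a narrow margin, and mutant replicate 1 set much of the size. Without that array the differences were 0.27 and 0.23.

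Rps2, a small subunit protein at the mRNA entry, read 10.3, 10.4 and 10.2 in mutants against 10.3, 9.87 and 9.62 in controls (difference 0.39, SE 0.19). Rpl37, a zinc finger protein of the large subunit, read 9.35, 8.56 and 9.11 in mutants against 8.62, 8.44 and 8.78 in controls (difference 0.39, SE 0.22). Rpl27a, whose start carries the longest tract among those printed above, read 9.42, 9.36 and 8.68 in mutants against 9.07, 8.88 and 8.31 in controls (difference 0.40, SE 0.27). In all 3 genes the groups overlapped, and the adjusted p was 0.942 in limma. Single arrays moved these values: Rps2 differed by 0.24 without control replicate 3 and by 0.56 without control replicate 1. Rpl37 differed by 0.22 without mutant replicate 1 and by 0.62 without mutant replicate 2. Rpl27a differed by 0.18 without control replicate 3 and by 0.63 without mutant replicate 3.

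Stalk proteins recruit elongation factors to the ribosome, and the 2 measured ones differed in direction without passing. Rplp1 read 12.4, 12.1 and 11.5 in mutants against 12.2, 11.2 and 11.1 in controls (difference 0.51, SE 0.33). Here mutant replicate 3 was below control replicate 1, and the difference was 0.32 without control replicate 3 and 0.86 without control replicate 1. Rplp0, which anchors the stalk, read 8.98, 9.88 and 9.27 in mutants against 9.93, 9.65 and 9.76 in controls, a difference of -0.40 (SE 0.24, 95% interval -0.94 to 0.14). It was -0.20 without mutant replicate 1 and -0.66 without mutant replicate 2.

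A single probe set set the Rplp0 value. Probe set 4369920 read 5.07, 11.8 and 4.43 in mutant livers, against 12.001, 12.7 and 12.5 in control livers. Mutant replicates 1 and 3 were thus 6.93 or more log2 units below every control, while mutant replicate 2 was close to control replicate 1. The mean was 7.11 ± 4.11 in mutants and 12.4 ± 0.35 in controls (SD, n = 3 each), a difference of -5.29 (SE 1.68). In limma the p was 0.0131 before and 0.994 after adjustment over 191663 probe sets. It was the only one of the family's 227 usable probe sets to differ by more than 2 in either direction, the next size being 1.67. Among all 191663 probe sets, 358 differed by more than 2. Without mutant replicate 2 it passed over all probe sets (adjusted p = 0.0113 in limma, 1 of 3 probe sets called in that fit). That array is the mutant that read close to a control, so leaving it out favours a pass. With any other single array left out, 0 probe sets of the family passed.

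The other 11 Rplp0 probe sets did not follow it. Their differences ran from -0.80 to 0.98. Their mean was 9.33, 9.70 and 9.71 in mutants against 9.74, 9.38 and 9.51 in controls, a difference of 0.041 in place of -0.40. Several well-detected ones were slightly higher in the same mutants in which probe set 4369920 was low. Probe set 4551704 read 10.7, 9.26 and 10.3 in mutants, against 9.06, 9.49 and 9.38 in controls, with mutant replicates 1 and 3 highest. Probe set 4402258 read 13.04, 12.6 and 12.9 in mutants, against 12.7, 12.6 and 12.8 in controls, so the transcript remained detected in all 6 livers. Others went the other way. Probe set 4522941 read 12.5, 12.3 and 12.2 in mutants, against 12.4, 12.9 and 12.8 in controls (difference -0.38). Probe sets 4848727 and 4965910 were lowest in mutant replicate 1, at 6.45 and 5.32. The positions of these probe sets in the gene, and sequence differences between the mice under them, were not analysed here.

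**Figure D3:**
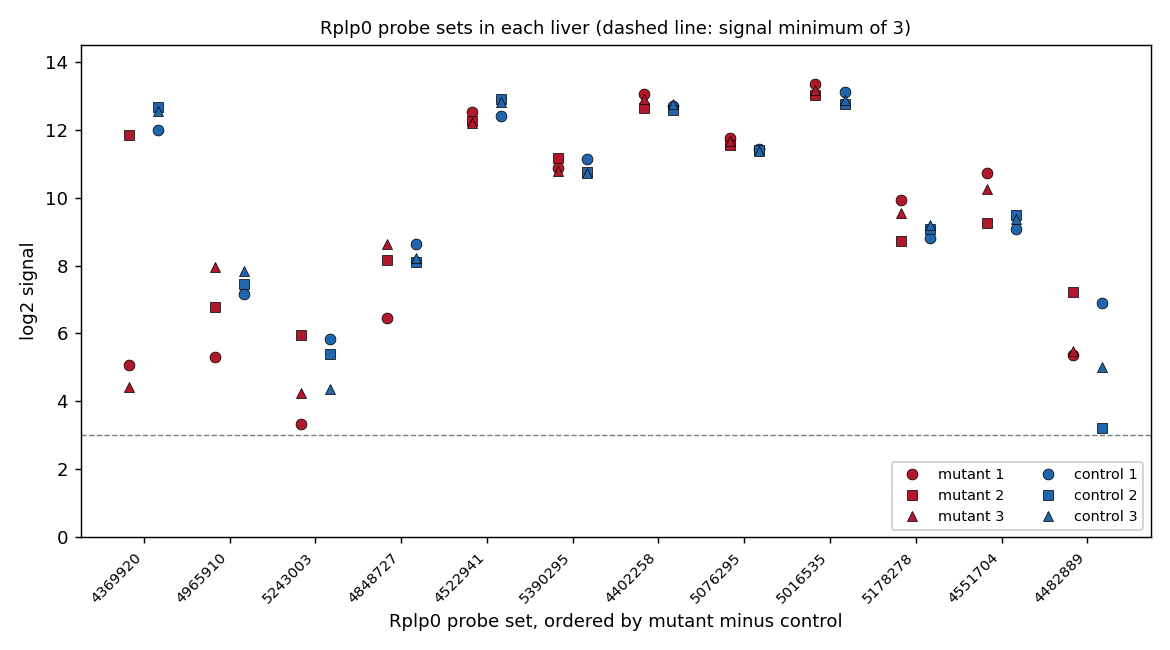
Log2 signal of the 12 Rplp0 probe sets in each liver, ordered by mutant minus control, with mutants left of controls and the signal minimum of 3 dashed. At probe set 4369920 mutant replicates 1 and 3 lie at 5.07 and 4.43 and the other 4 livers between 11.8 and 12.7.

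The diffSplice F-test of limma was used for exon usage. It asks whether the probe sets of a gene change unequally. The test could be run in 31 of the family's genes, and 0 passed after adjustment over 14324 genes, where 0.209% of all genes did. At an unadjusted p under 0.05 there were 3 (against 4.01% of all genes). Rplp0 had the smallest p of the family and ranked 41 among all genes (unadjusted p = 3.72e-04, adjusted p = 0.129 in limma's diffSplice). Without mutant replicate 2 it passed (adjusted p = 1.78e-08), and without mutant replicate 1 or control replicates 2 or 3 its adjusted p was 1. Mutant replicate 2 is the mutant in which probe set 4369920 read close to control replicate 1. The Simes form of diffSplice, which weighs single probe sets more, called Rplp0 (adjusted p = 5.48e-04) and Rps10 (adjusted p = 0.0434) on all 6 arrays, with 0.88% of all genes called. Both forms use 1 variance for all probe sets of a gene, whereas probe set 4369920 had an SD of 4.11 in mutants. With its own variance, that probe set had an adjusted p = 0.994 over all probe sets in limma.

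Rps10 encodes a protein of the small subunit head. Its most deviating probe set, 4457523, was dim, at 1.61, 1.82 and 3.17 in mutants against 3.45, 2.89 and 3.92 in controls. These 6 values run from 1.61 to 3.92, around the signal minimum of 3. The gene mean read 9.71, 9.25 and 9.44 in mutants against 9.51, 9.20 and 9.39 in controls, a difference of 0.099 (SE 0.17).

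Rpl31, a protein at the exit of the peptide tunnel, was next (adjusted p = 0.857 for the F-test in limma). Its probe set 5566831 read 1.88, 3.93 and 4.59 in mutants against 4.56, 5.42 and 5.17 in controls. Mutant replicate 1 was under the signal minimum there. The gene mean read 6.47, 7.36 and 7.04 in mutants against 7.41, 7.20 and 7.05 in controls (difference -0.26, SE 0.24). Without mutant replicate 1 this was -0.021, and without mutant replicate 2 it was -0.46. Rps3 and Rpl5 followed, each with an adjusted p = 1. Rps3, at the mRNA entry of the small subunit, read 10.4, 10.8 and 10.8 in mutants against 10.8, 10.2 and 9.97 in controls (difference 0.33, SE 0.24). With probe set medians in place of means its difference was 0.80, and it was 0.16 without control replicate 3 and 0.56 without control replicate 1. The probe set with the most deviating exon usage, 5487547, read 8.13, 9.74 and 9.90 in mutants against 9.98, 9.74 and 9.26 in controls, a difference of -0.41 (SE 0.48), and mutant replicate 1 was the lowest array there. Its probe set 4986941 read 10.9, 10.4 and 10.8 in mutants against 10.4, 9.64 and 9.69 in controls, a difference of 0.79 (SE 0.30; adjusted p = 0.994 in limma).

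Among the lower genes, Rps27 had the largest difference of the 40, -1.20 (SE 0.66, 95% interval -2.72 to 0.32). It encodes a zinc-binding protein of the small subunit. Its mean was 4.75, 5.45 and 7.10 in mutants, against 5.75, 7.62 and 7.53 in controls. The arrays fell into a low set of mutant replicates 1 and 2 with control replicate 1, and a high set of the other 3. Both of its probe sets gave this order, with 4424154 at 5.12, 5.49 and 7.26 in mutants against 5.94, 7.85 and 7.59 in controls. Without mutant replicate 1 the difference was -0.69, and without mutant replicate 3 it was -1.87. The 3 low arrays are those on which Nr1d1 was lowest.

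Rps27l encodes a close paralog of Rps27 and is known as a target of p53. It read 7.18, 7.80 and 8.14 in mutants against 8.40, 7.96 and 8.52 in controls, a difference of -0.59 (SE 0.27). Mutant replicate 1 was lowest, mutant replicate 3 lay above control replicate 2, and the difference over the same 3 probe sets was -0.32 without mutant replicate 1. With the signal minimum applied again to the remaining 5 arrays it was 0.0079, because another, dim probe set then entered the mean. The 3 probe sets differed by -1.31, -0.32 and -0.13. Rpl5, which carries 5S ribosomal RNA into the large subunit and can bind Mdm2, read 7.77, 8.28 and 8.21 in mutants against 8.43, 8.17 and 8.57 in controls (difference -0.31, SE 0.19), and the difference was -0.15 without mutant replicate 1. Its most deviating probe set for exon usage, 4950202, read 3.33, 4.48 and 5.27 in mutants against 4.93, 5.40 and 5.34 in controls (difference -0.86, SE 0.47), again with mutant replicate 1 lowest and the groups overlapping.

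The second paralog pair is Rpl3 with Rpl3l, a form of striated muscle. Rpl3l was dim, at 3.87, 4.28 and 3.77 in mutants against 4.06, 3.78 and 3.72 in controls, with a difference of 0.12 (SE 0.19, 95% interval -0.31 to 0.56). Rpl39l, a form known from testis, differed by 0.078 (SE 0.20). X-linked Rps4x read 9.87, 9.38 and 10.3 in mutants against 9.52, 10.2 and 10.2 in controls (difference -0.12, SE 0.27), with mutant replicate 2 and control replicate 1 lowest. Without mutant replicate 2 the difference was 0.10, and without control replicate 1 it was -0.35.

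Other genes lay between these. The smallest within-group spread of a member was an SD of 0.111 and the largest 1.13, with a median of 0.342, against a median of 0.228 over all genes tested. Rpl4 differed by 0.11 (95% interval -0.26 to 0.48) and Rpl13a by 0.074 (95% interval -0.26 to 0.41), so that differences of 0.5 in either direction lie outside their intervals. For Rpl39, with 0.30 (95% interval -0.65 to 1.24), the data set no such bound. Rps25 differed by -0.40 (SE 0.34), Rpl30 by 0.46 (SE 0.33), Rpl41 by 0.36 (SE 0.25) and Rps9 by 0.35 (SE 0.30). Of the 40, 6 differed by more than 0.5 in either direction and 1 by more than 1. The share of all genes past these sizes was not counted, so these counts do not set the family apart.

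A further 8 genes have 1 usable probe set each and were tested only as probe sets. Rpl14 (-0.74), Rpl15 (-0.80) and Rps19 (-0.31) were lower in mutants. Rpl17, Rpl21, Rpl26, Rpl6 and Rps13 were higher, by 0.086 to 0.36. The smallest unadjusted p of the 8 was 0.0761 in limma, that of Rpl14. Rpl15 read 3.78, 7.98 and 6.09 in mutants against 7.40, 6.41 and 6.46 in controls, with mutant replicates 1 and 2 at opposite ends.

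Single probe sets of the family also tended to read higher in mutants. Of the 227 usable probe sets of the family 161 were higher in mutants (70.9%, against 46.8% of all probe sets) and 66 lower, with a median of 0.21 against -0.027. No adjusted p passed (0 of 227, against 0% of all probe sets in limma). At an unadjusted p under 0.05, 7 were higher (3.08%, against 1.9% of all) and 3 lower (1.32%, against 2.18%). Every mutant lay above every control in 22 (9.69%, against 4.01%) and below in 3 (1.32%, against 4.44%). The 3 were Rplp0 4369920 and 1 probe set each of Rpl7 and Rpl19. Rpl24 had 4 of its 9 usable probe sets among the 22, although its gene mean overlapped between groups (9.77, 9.37 and 10.01 in mutants, against 9.48, 9.67 and 9.56 in controls). Probe sets of a gene come from the same mice and are not separate comparisons.

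By position, the 48 genes lie on 16 chromosomes. Chromosome 7, which carries Dhx32, holds 8 of them, of which 6 were tested as gene means. These were Rpl13a, Rpl27a, Rps3, Rps9, Rps15a and Rps16. All 6 had a higher mean in mutants, by 0.074 to 0.40 with a median of 0.28, and in none did the groups separate. The other 2, with 1 probe set each, were Rps13, at 0.36, and Rps19, at -0.31. Of the other 34 tested genes 23 were higher, with a median of 0.14. This division was made after the differences were known and was not tested.

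Other parts of the translation machinery were set beside the family. Of 68 mitochondrial ribosomal protein genes, whose products form the separate ribosome of mitochondria, 36 were higher and 32 lower, with a median of 0.014. Mrpl1 differed by -0.58 (SE 0.24) and Mrps26 by 0.36 (SE 0.16). Of 47 genes of ribosome biogenesis and RNA polymerase I, 35 were higher and 12 lower, with a median of 0.10. In each of these lists 1 gene had an unadjusted p under 0.05, against 2.01% of all genes in the higher and 2.19% in the lower direction. It was Mrpl1, lower, in the mitochondrial list and Nhp2, higher, in the biogenesis list. Nhp2, a protein of the particles that modify ribosomal RNA, read 8.31, 8.11 and 8.16 in mutants against 7.61, 7.97 and 7.66 in controls (difference 0.45, SE 0.16). Ddx56, a nucleolar helicase, differed by 0.33 (SE 0.17).

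Other mRNAs with TOP tracts, among them elongation factors, had 9 of 15 members higher, with a median of 0.013. Eef1g, a subunit of elongation factor 1, differed by 0.24 (SE 0.16), and Npm1, a nucleolar chaperone, by -0.36 (SE 0.30). Of 26 initiation factor genes 13 were higher and 13 lower (median -9.6e-04), with Eif3m at -0.29 (SE 0.16) and Eif3k at 0.25 (SE 0.18). Of 14 genes of mTOR signalling and growth control 7 were higher and 7 lower (median -0.032), with Tsc1, a brake on mTOR, at -0.50 (SE 0.24) and Eif4ebp2, an inhibitor of initiation, at -0.29 (SE 0.15). Of 2 measured genes close to the family but outside its rule, Rpl22l1 differed by -0.29 (SE 0.16) and Rpl7l1 by 0.26 (SE 0.22). No gene of these 5 lists or of the mitochondrial list passed after adjustment over all genes in limma. Differences between these lists and the ribosomal proteins were not tested.

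**Figure D4:**
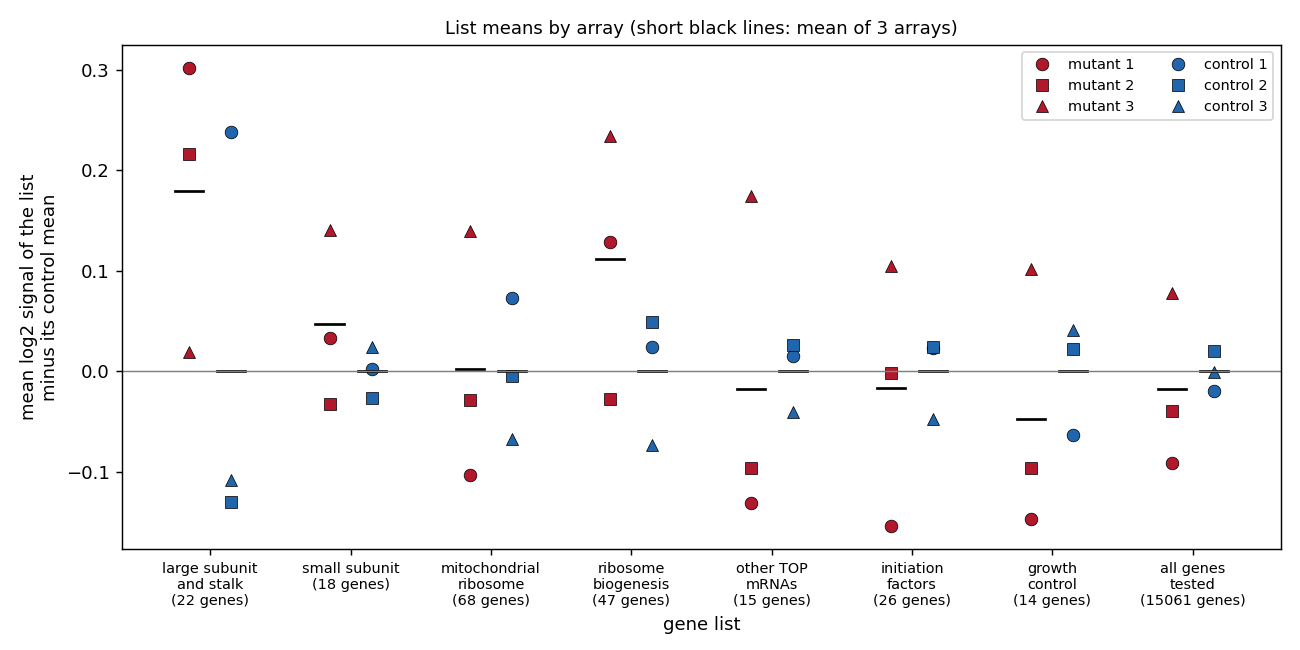
Mean log2 signal of each gene list on each array, minus the list's control mean, with mutants left of controls and black lines at the mean of 3 arrays. For the large subunit genes control replicate 1 lies among the mutants, and in the other lists plotted the mutants spread on both sides of 0.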

How the data were processed

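The authors deposited a table of log2 signals that covers 204531 probe sets and 6 arrays. Affymetrix Expression Console 1.1, RMA, Partek 6.4 and build mm9 appear in the submitters' processing notes with no role given. RMA normalizes arrays to each other and compresses differences of dim probe sets. Genes were named from the platform annotation: 185264 probe sets had 1 symbol, 3488 had several and 15779 were not listed.

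Probe sets with a mean of 3 or more in a group were kept (191663), and genes needed at least 2 of them (3 for exon usage). Groups were compared in limma 3.58.1 (lmFit, eBayes, diffSplice) under R 4.3.3, with p-values adjusted by Benjamini-Hochberg over the whole table of genes or of probe sets. The number of arrays limits the precision. Steps were tested on simulated data. Both forms of diffSplice, the F-test and the Simes test, use 1 variance for all probe sets of a gene, so unequal spreads can raise their numbers of calls.

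The members and lists were chosen with earlier results of these data known. Values by array are given for the 8 higher and 4 lower members of smallest p, those with particular roles, the 5 of smallest exon usage p and the 4 probe sets of smallest p. In each comparison list 2 genes are named with their differences, and Nhp2 also by array. Some genes outside this rule (Rpl4, Rpl13a, Rpl24, Rpl30, Rpl39, Rpl39l, Rpl41, Rps9, Rps25 and those with 1 probe set) were named after their values were seen. Alternatives were other signal minimums, normalizations and moderation, probe set medians, array weights, a replicate block and leaving out each array. Chromosomes and start sites came from RefSeq tables of build GRCm38.p6, which differs from mm9, and all 48 symbols matched.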

Additional observations from a re-analysis of the deposited data

How the results depend on the processing

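In all alternatives 0 ribosomal protein genes passed over all genes as gene means, and the count of genes with a higher mean ran from 28 to 30 with 1 array left out. The median difference ran from 0.069 to 0.24 with 1 array left out, the count at an unadjusted p under 0.05 from 0 to 7 higher and 0 to 2 lower, and the probe sets and exon usage calls each from 0 to 1. Over all genes the count at an unadjusted p under 0.05 ran from 324 to 1356 with 1 array left out. Quantile normalization gave 1 lower gene, array weights gave 6 higher and 1 lower, and the replicate block gave 6 higher and 2 lower; over all genes the count at an unadjusted p under 0.05 was then 728, 1220 and 894, against 633. The Simes test called 2 genes for exon usage. Probe set medians in place of means turned the sign of Rplp0 (0.064), Rpl5 (0.042), Rpl31 (0.33) and Rpl3l (-0.12). Leaving out the most deviating probe set of Rplp0, an alternative chosen after seeing the data, gave 0.041. With 1 array left out, Rps27l ranged from -0.80 to 0.0079 with the signal minimum applied again, and from -0.80 to -0.32 with the probe sets of all 6 arrays kept, which was also chosen after seeing the data. By either way, Rps10 ranged from -0.022 to 0.21, Rps4x from -0.35 to 0.10 and Rpl3l from -0.029 to 0.23. The cause of these changes was not tested, except that the Rplp0 value turned with that probe set. Array medians set equal moved the median of all genes to 0.032 and that of the family to 0.22. The arrays share only replicate numbers, and nothing in the labels says that these pair the samples. Deviations from group means correlated at 0.0981, -0.108 and 0.176 for arrays of the same number over all genes. For arrays of different numbers they correlated at -0.296 to 0.213, so these values cannot decide whether the samples were paired. The block left 0 genes of the family past the threshold.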
